A study of Populus tremula x Populus alba with 2 samples.

Results

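The genes at least 2-fold higher in stems of the MOMT4 line were 91 of the 41335 poplar rows of the expression table. A poplar gene belonged to them when the mean of its 2 values was at least 5 RPKM and its log2 ratio at least 1. RPKM are reads scaled to length and to the mapped reads of the library. The ratio is MOMT4 over WT after 1 RPKM was added to both, so the limit is 2-fold. Log2 ratios and fold limits below use this ratio, unless another added value is named. Folds of single genes and their intervals are given without the added 1 RPKM. The table held 1 further row, the transgene. Of the poplar rows, 16602 passed the 5 RPKM filter. The higher genes were 0.548% of these, and 51 genes (0.307%) were at least 2-fold lower in MOMT4. The genes were chosen by these same 2 values, so the levels and ratios below describe them and were not tested.

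The comparison was between 1 MOMT4 library and 1 WT library, each from a pool of 2 to 3 plants. The MOMT4 plants carried the engineered monolignol 4-O-methyltransferase MOMT4 and were of 1 transgenic line, MOMT4-0. The transgene was driven by the bean PAL2 promoter, which is active in lignifying tissue. Both lines were hybrid aspen (Populus tremula x Populus alba), coppiced and kept in a greenhouse for about 2 months, and about 100 mg of debarked young stem from internodes 1 to 15 was used. With 1 library per line, differences between plants, between RNA preparations and between lines cannot be told apart.

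Lignin is the phenolic polymer that stiffens the walls of xylem cells. It forms by radical coupling of monolignols, hydroxylated phenylpropanoid alcohols, which need a free para-hydroxyl group to form the radicals. MOMT4 methylates that hydroxyl, and a monolignol so capped cannot enter the coupling reaction. Young stems hold xylem at several stages of wall deposition, and peeling the bark takes the phloem away. The table pairs its Potri identifiers with no gene names, and none of the 91 identifiers is named in the sources used here. The genes are therefore described by identifier, level, length and position, with no role given to any of them, and the tissue label was not checked against marker genes.

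The headings of the 2 value columns name the libraries. The short codes in the sample labels pair them in the opposite way, and the headings were used here. The transgene row, 1122 bases long, had 1221.8 RPKM under the MOMT4 heading and 4.79 under WT, or 10489 and 38 reads. Its ratio was 255-fold, and counting error alone allowed 186 to 361 (95% interval). Summed RPKM was 661765 in MOMT4 and 669547 in WT, and the median log2 ratio of the 16602 genes past the filter was -0.01, with quartiles of -0.16 and 0.14. In bulk tissue, more cells of a type and more RNA per cell cannot be told apart.

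The levels of the 91 genes lay between 7.57 and 303.3 RPKM in the MOMT4 library, with a median of 18.4, and between 0 and 147.5 RPKM in the WT library, with a median of 5.41. In the WT library 48 of them had at least 5 RPKM and 43 had less, of which 3 were listed at 0. In the MOMT4 library 17 had less than 10 RPKM, 32 had 10 to 20, 28 had 20 to 50, 7 had 50 to 100 and 7 had 100 or more. Their log2 ratios ran from 1.00 to 7.51, with a median of 1.28 and quartiles of 1.12 and 1.68. Most lay close to the limit, with 60 of the 91 below 1.5. A further 21 lay between 1.5 and 2, 6 between 2 and 3, and 4 were at 3 or more. Only 10 genes reached a log2 ratio of 2.

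**Figure D1:**
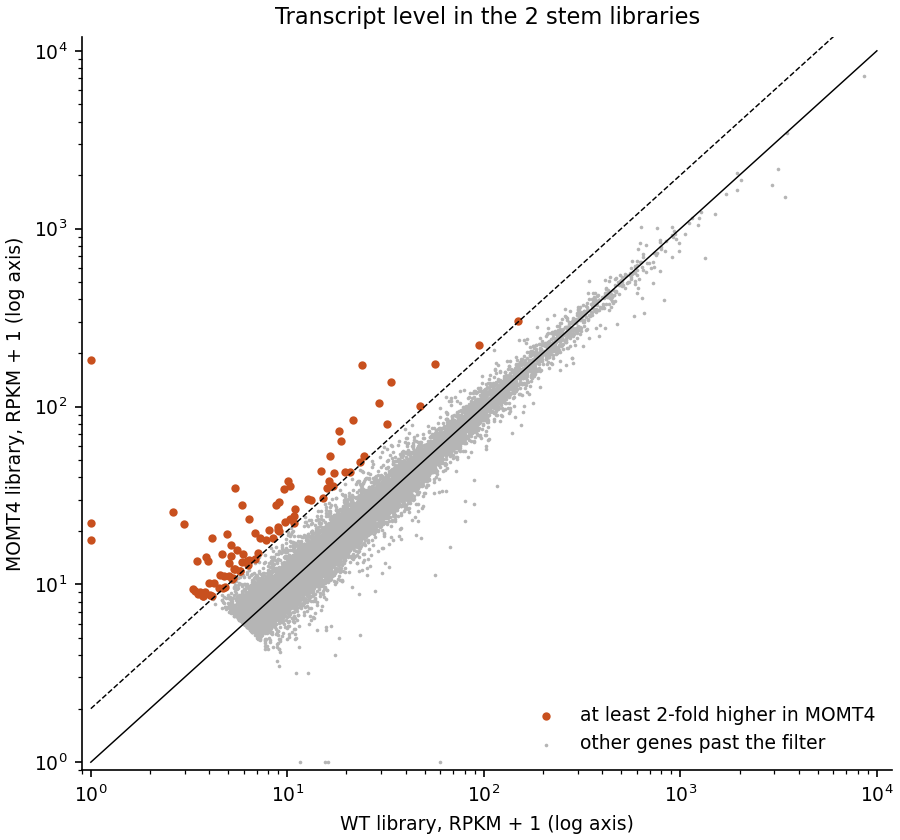
RPKM + 1 of the 16602 poplar genes past the filter, with the MOMT4 library on the y axis and the WT library on the x axis, both on log scales. Orange points are the 91 genes at least 2-fold higher in MOMT4, the solid line marks equal values and the dashed line a ratio of 2. Most orange points lie just above the dashed line, and 3 stand at the left edge because they were listed at 0 in WT.

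The number of reads behind each value set how much the ratio can carry. RPKM values move in steps of 1 read, and the step depends on the counted length of the gene. The steps matched an effective length, the counted length reduced for fragments with a mean of 200 bases. This scaling raised the RPKM of 1 read most in the shortest rows. Whole numbers of reads could be read back for 61 of the 91 genes (67%). In 27 of these the counted length was the whole span of the row, as in a gene model of 1 exon, and in 34 it was part of the span, 162 to 3028 bases with a median of 1193. A further 23 genes gave no single answer, and 7 shared their position with another row and were not attempted. The 23 without an answer had a median span of 2612 bases and means of at least 6.20 RPKM. Across all genes past the filter, reads were recovered for 4587, or 27.6%.

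The 61 genes held 1 to 1100 reads in MOMT4, with a median of 83, and 0 to 272 reads in WT, with a median of 27. Intervals on the ratio were exact 95% binomial (Clopper-Pearson) intervals on the split of these reads. They cover counting error only and not the difference between plants, and PCR copies of 1 molecule are not independent. The genes were chosen by these same values, so an interval clear of 1 is in part set by the choice and is no test. For 15 of the 61 genes the interval reached a ratio of 1 or below. The median total was 104 reads, against 260 over the 4587 genes. Recovery was less likely for long rows with many reads, so both medians hold for the recovered genes only.

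**Figure D2:**
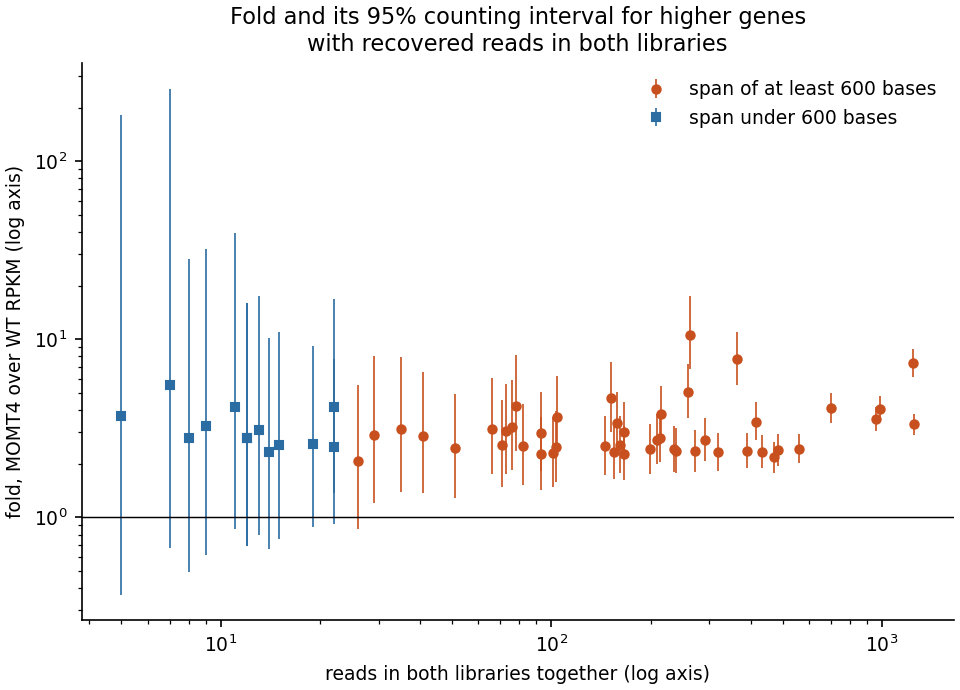
Fold of MOMT4 over WT RPKM (y axis, log scale) against the reads of both libraries together (x axis, log scale) for the higher genes with reads recovered in both libraries. Vertical bars are 95% counting intervals, orange circles are genes spanning at least 600 bases, blue squares are genes spanning fewer, and the horizontal line marks a ratio of 1. All but 1 of the blue intervals cross the line, as does 1 orange interval, and bars shorten as reads increase. The genes were chosen by the same values.

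Among the 10 largest log2 ratios, 4 belonged to genes spanning over 1000 bases and alone at their position, 4 to short spans with few reads and 2 to rows that share a position. Potri.008G131200 (chromosome 8, 8631059 to 8632295, span 1237 bases) had 169.4 RPKM in MOMT4 and 23.0 RPKM in WT, from 1100 and 138 reads. Its ratio was 7.37-fold, with a counting interval of 6.17 to 8.87, and it held the most reads of the 7 among these 10 with reads recovered. The preceding row, Potri.008G131100, had 1.60 RPKM in MOMT4 and 0.691 in WT.

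Potri.019G031200 (chromosome 19, 3509185 to 3513455) had 20.9 RPKM in MOMT4 and 1.96 RPKM in WT, from 241 and 21 reads over a counted length of 1436 bases. The ratio was 10.6-fold, with an interval of 6.79 to 17.5, the largest ratio among genes with reads recovered and above 0 in both libraries. Potri.013G080300 (chromosome 13, 7005589 to 7007356) had 33.9 RPKM in MOMT4 and 4.40 RPKM in WT, from 325 and 39 reads, a ratio of 7.71-fold with an interval of 5.52 to 11.0. The row after it was also among the 91 genes, as given below.

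Potri.001G024900 (chromosome 1, 1849891 to 1852473, span 2583 bases) had 24.7 RPKM in MOMT4 and 1.63 RPKM in WT, a 15.1-fold difference. Its log2 ratio, after 1 RPKM was added to both values, was 3.29. Reads were not recovered for this gene, so it has no interval. Its preceding row, Potri.001G024800, had 3.22 RPKM in MOMT4 and 1.58 in WT, from 33 and 15 reads.

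The largest log2 ratio of all, 7.51, belonged to Potri.002G032000 (chromosome 2, 2037214 to 2037339). Its 126-base span held 2 reads in MOMT4 and 0 in WT, which the length scaling turned into 181.1 and 0 RPKM. Potri.002G115400, spanning 153 bases on chromosome 2 from 8688397, had 1 read in MOMT4 and 0 in WT, listed as 21.1 and 0 RPKM. No fold is given for either, since both libraries were below the 3 reads that a count of 0 allows. Potri.013G142500 (207 bases) had 6 reads in MOMT4 and 1 in WT, a ratio of 5.55-fold with an interval of 0.673 to 255. Potri.002G263100 (278 bases, of which 162 were counted) had 9 reads in MOMT4 and 2 in WT, or 135.8 and 32.6 RPKM, with an interval of 0.862 to 39.6.

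The other 2 of the 10 shared their limits with other rows. Potri.013G147000 (chromosome 13, 15182568 to 15186633) was listed at 16.8 RPKM in MOMT4 and 0 in WT, but Potri.013G146900, at the same limits, had 22.9 RPKM in MOMT4 and 25.1 in WT. Potri.008G014500 (chromosome 8, 772577 to 782049) had 17.3 RPKM in MOMT4 and 3.11 in WT. The 2 rows at its limits, Potri.008G014300 and Potri.008G014400, had 8.52 and 11.8 RPKM in MOMT4, against 7.96 and 10.6 RPKM in WT. In both cases the rows with the same limits did not share the difference.

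**Figure D3:**
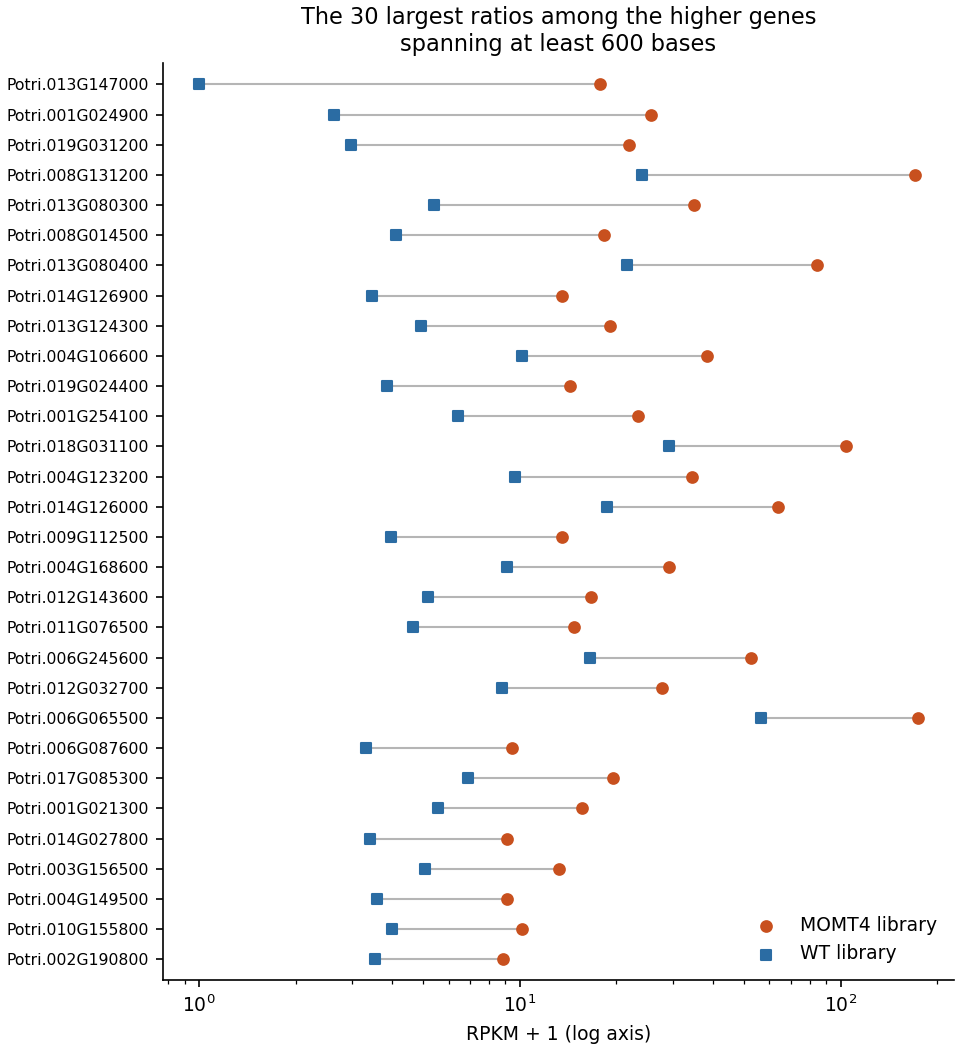
RPKM + 1 (x axis, log scale) in the MOMT4 library (orange circles) and in the WT library (blue squares) for the 30 genes with the largest log2 ratio among the higher genes spanning at least 600 bases, largest at the top. Each grey line joins the 2 values of 1 gene, and the leftmost square is Potri.013G147000, listed at 0 in WT.

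The most abundant of the 91 genes included both small and large ratios. Potri.006G166800 (chromosome 6, 17127838 to 17130449) had the highest mean, with 303.3 RPKM in MOMT4 and 147.5 RPKM in WT, a ratio of 2.06-fold. Potri.019G050200 (chromosome 19, 7540234 to 7542120) had 219.6 RPKM in MOMT4 and 93.7 RPKM in WT, or 2.34-fold. Potri.006G065500 (chromosome 6, 4818606 to 4820102) had 173.1 RPKM in MOMT4 and 55.3 RPKM in WT, or 3.13-fold. Reads were not recovered for these 3. Potri.008G131200 and the 126-base Potri.002G032000 completed the top 5 by mean level. Of the 1179 genes with a mean of 100 RPKM or more, 3 were at least 2-fold higher (0.254%), against 39 of 4339 (0.899%) with means of 5 to 10 RPKM.

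The higher genes were short. Their median span was 1782 bases, against 3929 bases over all genes past the filter, and it was 1115 bases for the genes at least 2-fold lower. Spans under 600 bases made up 15 of the 91 higher genes (16.5%), 18 of the 51 lower genes (35.3%) and 152 of all 16602 genes past the filter (0.916%). Below 300 bases, 10 of 44 genes were at least 2-fold higher (22.7%) and 8 were at least 2-fold lower (18.2%). At 1000 to 2000 bases 30 of 2033 genes were higher (1.48%), and at 4000 bases or more 13 of 8124 were (0.16%). Short spans were thus frequent in both directions.

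The short spans held few reads. All 15 had recovered reads, between 1 and 22 in both libraries together, and 13 were counted over their whole span. The interval reached 1 or below in 14 of them. The exception was Potri.006G271000 (chromosome 6, 27258573 to 27258785, 213 bases), with 18 reads in MOMT4 and 4 in WT, or 72.0 and 17.3 RPKM, a ratio of 4.16-fold and an interval of 1.37 to 16.9. Among all genes past the filter with recovered reads, those with under 20 reads were higher in 13 of 58 cases (22.4%) and lower in 9 (15.5%). From 20 to below 100 reads 3.24% were higher and 2.81% lower, and from 100 to below 500 reads 0.869% and 0.322%. With 500 reads or more, 6 of 958 were higher and 6 were lower (0.626% each). What part low read numbers had in the choice of the short genes was not tested.

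**Figure D4:**
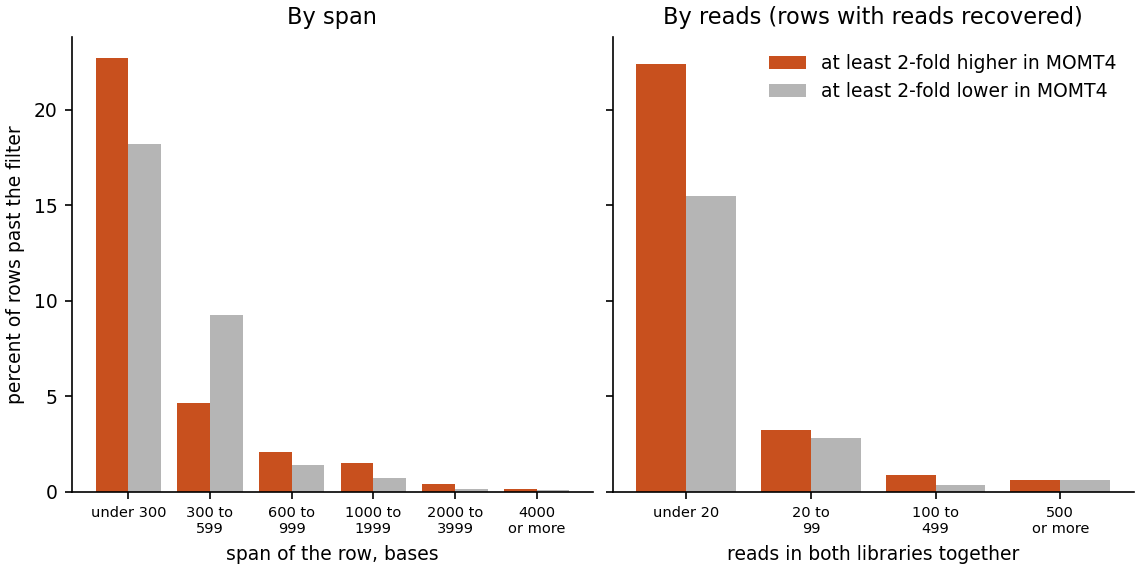
Percent of the genes past the filter that were at least 2-fold higher in MOMT4 (orange bars) or at least 2-fold lower (grey bars), by the span of the row in bases (left) and by the reads of both libraries together for genes with reads recovered (right). Both shares are largest in the leftmost class of each panel, 22.7% and 18.2% under 300 bases and 22.4% and 15.5% under 20 reads.

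A pair of short members, Potri.011G000400 (chromosome 11) and Potri.015G141600 (chromosome 15), had the same span of 339 bases and the same values, 7.57 RPKM in MOMT4 and 2.73 RPKM in WT, from 9 and 3 reads each. Potri.001G458800 on chromosome 1 also spans 339 bases and also had 9 reads in MOMT4, with 1 in WT, and its mean was below the filter. Rows of equal length can share RPKM values whenever their read numbers are equal, and whether the same reads were counted at more than 1 place was not tested.

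Of the genes spanning at least 600 bases, 46 had recovered reads, 26 to 1250 in both libraries together with a median of 182. The interval reached 1 or below in 1 of them, Potri.008G063000, with 18 reads in MOMT4 and 8 in WT over 270 counted bases, or 29.6 and 14.2 RPKM, a ratio of 2.08-fold and an interval of 0.861 to 5.53. A total of 33 genes had at least 100 reads. Among the genes with recovered reads, these are the values in which counting error is smallest, although the spread between plants remains unknown. Abundant genes without recovered reads, such as Potri.006G166800 with 303.3 RPKM in MOMT4, may hold more reads.

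Beside those already named, 4 of these genes stood at more than 4-fold. Potri.014G126900 (chromosome 14, 9742752 to 9745523) had 12.5 RPKM in MOMT4 and 2.47 RPKM in WT, from 219 and 40 reads, a ratio of 5.06-fold with an interval of 3.60 to 7.28. Potri.019G024400 (chromosome 19) had 13.3 RPKM in MOMT4 and 2.86 RPKM in WT, from 126 and 25 reads, with an interval of 3.02 to 7.48. Potri.004G106600 (chromosome 4, 9380808 to 9382806) had 37.3 RPKM in MOMT4 and 9.11 RPKM in WT, from 570 and 129 reads, with an interval of 3.37 to 4.99. Potri.013G080400, the neighbour of Potri.013G080300, is described with it below.

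Potri.011G076500 had 172 reads in MOMT4 and 42 in WT, a ratio of 3.79-fold (2.69 to 5.44). Potri.014G126000 (chromosome 14, 9688494 to 9689989), a gene counted over its whole span, had 62.8 RPKM in MOMT4 and 17.7 RPKM in WT, from 761 and 198 reads, or 3.56-fold (3.04 to 4.18). Potri.006G245600 (chromosome 6, 25323806 to 25326021), also counted whole, had 51.7 RPKM in MOMT4 and 15.5 RPKM in WT, from 978 and 272 reads, or 3.33-fold (2.90 to 3.82). Its 1250 reads were the most of any of the 61 genes. In Potri.012G032700 (chromosome 12) the MOMT4 library held 328 reads and the WT library 88, or 3.45-fold (2.72 to 4.41). In Potri.006G087600 (chromosome 6) these were 83 in MOMT4 and 21 in WT, or 3.66-fold (2.24 to 6.21), at a level of only 8.46 RPKM in MOMT4 and 2.32 RPKM in WT. Potri.014G027800, with 124 reads in MOMT4 and 34 in WT, and Potri.003G156500, with 127 in MOMT4 and 39 in WT, lay at 3.37-fold and 3.01-fold.

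The remaining genes with at least 100 reads lay between 2.17-fold and 2.79-fold. The best read was Potri.013G033200 on chromosome 13, with 37.1 RPKM in MOMT4 and 15.3 RPKM in WT, from 406 and 155 reads, an interval of 2.01 to 2.93. Potri.004G051900, with 218 reads in MOMT4 and 74 in WT, and Potri.013G087000, with 160 in MOMT4 and 53 in WT, lay at 2.73-fold (2.08 to 3.60) and 2.79-fold (2.04 to 3.89). In Potri.016G113100, Potri.003G126800, Potri.001G200800, Potri.004G233900, Potri.003G087400, Potri.001G083600, Potri.001G451600, Potri.019G088200, Potri.016G052500, Potri.019G024800, Potri.006G137800, Potri.013G041600, Potri.003G009000, Potri.006G179700, Potri.006G090100 and Potri.008G039700, 16 genes in all, the lower end of the interval lay between 1.47 and 1.98. Potri.008G039700, with the lowest end, had 72 reads in MOMT4 and 29 in WT.

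The 58 other genes had fewer reads or none recovered, and some without recovered reads stood well above the filter. Potri.018G031100 on chromosome 18 had 103.2 RPKM in MOMT4 and 28.2 RPKM in WT, Potri.001G191000 on chromosome 1 had 99.9 RPKM in MOMT4 and 46.3 RPKM in WT, and Potri.019G055200 on chromosome 19 had 78.6 RPKM in MOMT4 and 31.3 RPKM in WT. These 3 genes lay at 3.66-fold, 2.16-fold and 2.51-fold, and like the others in the next 2 paragraphs they were picked after the values were seen.

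Several genes without recovered reads lay at more than 3-fold. Potri.001G254100 (22.3 RPKM in MOMT4 and 5.41 RPKM in WT) lay at 4.13-fold, Potri.004G123200 (33.3 RPKM in MOMT4 and 8.63 RPKM in WT) at 3.86-fold and Potri.004G168600 (28.2 RPKM in MOMT4 and 8.09 RPKM in WT) at 3.49-fold. Potri.017G085300 (18.4 RPKM in MOMT4 and 5.87 RPKM in WT) lay at 3.14-fold. Potri.008G182200 (51.9 RPKM in MOMT4 and 23.6 RPKM in WT), Potri.008G081000, Potri.002G068300, Potri.013G154700, Potri.004G204700, Potri.001G011000, Potri.002G207400, Potri.004G156400 and Potri.001G354900 were nearer to the limit, between 2.11-fold and 2.81-fold. Of these, the longest was Potri.001G354900, with a span of 7029 bases, 11.8 RPKM in MOMT4 and 5.31 RPKM in WT.

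Genes of at least 600 bases with fewer than 100 reads gave wider intervals. In Potri.009G112500 (chromosome 9) the MOMT4 library held 64 reads and the WT library 14, or 12.5 and 2.95 RPKM, a ratio of 4.23-fold with an interval of 2.35 to 8.17. In Potri.001G021300 these were 59 in MOMT4 and 17 in WT, or 3.21-fold (1.85 to 5.87). Potri.004G149500, Potri.017G081300, Potri.001G414600 and Potri.010G239200, with 37 to 60 reads in MOMT4 and 14 to 22 in WT, had intervals that started between 1.29 and 1.74. The short genes Potri.014G023700 (42.5 RPKM in MOMT4 and 13.8 RPKM in WT), Potri.008G166400 (41.5 RPKM in MOMT4 and 16.3 RPKM in WT) and Potri.006G055200 (34.5 RPKM in MOMT4 and 9.33 RPKM in WT) had levels like those of well-read genes from only 10, 11 and 4 reads in MOMT4 and 3, 4 and 1 in WT. Potri.010G105500, Potri.008G086200, Potri.006G093300, Potri.014G011300 and Potri.019G126200 had 6 to 16 reads in MOMT4 and 2 to 6 in WT.

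Neighbouring rows mostly did not share the difference. The 91 genes had 181 adjacent rows, taken as the previous and the next row by start on the same chromosome or scaffold. Rows with the same limits as a higher gene, such as Potri.013G146900 and Potri.008G014400, were counted as adjacent too. Of the 181 rows, 56 (30.9%) were listed at 0 in both libraries, against 23.2% of the rows adjacent to all genes past the filter. A mean of at least 1 RPKM was found in 98, and of these 13 (13.3%) were at least 1.5-fold higher in MOMT4, 80 were within 1.5-fold and 5 were at least 1.5-fold lower. Among all rows averaging 1 RPKM or more, 4.05% were at least 1.5-fold higher. The share was 3.5% (738 of 21106) among the rows adjacent to all genes past the filter and 3.33% (2 of 60) among those adjacent to genes at least 2-fold lower. The median log2 ratio of the 98 rows was 0.04, against -0.01 around all genes past the filter and -0.12 around the lower genes.

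Adjacent rows count each other, and 4 of the 13 were the members of 2 adjacent pairs. The first pair was Potri.013G080300 and Potri.013G080400 on chromosome 13, with 24.2 kb between them. Potri.013G080400 (7031520 to 7033553) had 83.5 RPKM in MOMT4 and 20.6 RPKM in WT, from 805 and 184 reads, a ratio of 4.05-fold with an interval of 3.44 to 4.78. The counted lengths of the pair, 1228 and 1234 bases, differed little. Within 5 rows on either side, the 4 other rows of at least 1 RPKM had log2 ratios of -0.05 to 0.72 and 4 rows were listed at 0 in both libraries. The highest of the other rows was Potri.013G080700, with 22.1 RPKM in MOMT4 and 12.99 RPKM in WT.

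The second pair was Potri.010G155700 and Potri.010G155800 on chromosome 10, with 6.20 kb between 16313477 and 16319676. Potri.010G155700 had 10.3 RPKM in MOMT4 and 3.53 RPKM in WT, from 22 and 7 reads, and Potri.010G155800 had 9.14 RPKM in MOMT4 and 3.00 RPKM in WT, from 56 and 17 reads. Their counting intervals were 1.20 to 8.06 and 1.74 to 5.59. The fifth row before the pair, Potri.010G155200, had 6.77 RPKM in MOMT4 and 2.86 RPKM in WT, with a mean just under the filter. The other 3 rows of at least 1 RPKM nearby were lower in MOMT4, with 3.36 RPKM in MOMT4 and 4.56 RPKM in WT for Potri.010G155400, 4.97 RPKM in MOMT4 and 7.67 RPKM in WT for Potri.010G156100, and 13.6 RPKM in MOMT4 and 15.7 RPKM in WT for Potri.010G156300.

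On chromosome 19, Potri.019G024400 (2800499 to 2803623) and Potri.019G024800 (2834519 to 2836408) lay 30.9 kb apart with 3 rows between them. Potri.019G024800 had 12.6 RPKM in MOMT4 and 5.24 RPKM in WT, from 143 and 55 reads. The middle row of the 3, Potri.019G024600, had 5.79 RPKM in MOMT4 and 1.36 RPKM in WT, from 69 and 15 reads, and failed the filter on the mean. The rows on either side of it, Potri.019G024500 and Potri.019G024700, had 0 and 0.383 RPKM in MOMT4 and were listed at 0 in WT. Counted lengths of the 3 expressed genes were 1214, 1475 and 1413 bases. The nearest rows of at least 1 RPKM outside, Potri.019G024200 and Potri.019G025100, had log2 ratios of -0.15 and -0.02.

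**Figure D5:**
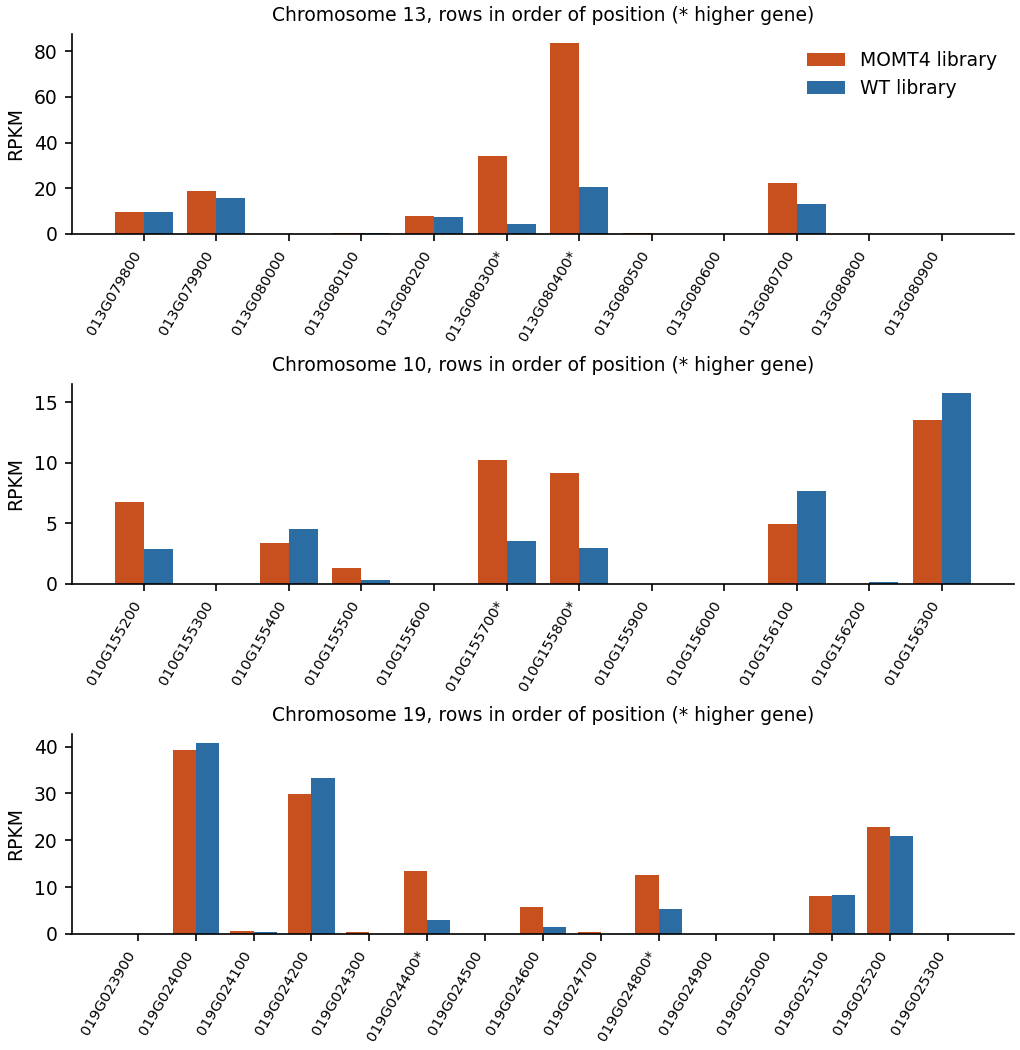
RPKM (y axis) of consecutive rows (x axis, in order of position, identifiers without their Potri. prefix) around 3 groups of close higher genes on chromosomes 13, 10 and 19. Orange bars are the MOMT4 library, blue bars the WT library, and asterisks mark the genes at least 2-fold higher. The starred rows and Potri.010G155200 and Potri.019G024600 are higher in MOMT4, whereas most rows beside them are level or near 0.

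Among the 9 adjacent rows outside the pairs that were at least 1.5-fold higher, Potri.011G076400 stood next to Potri.011G076500 on chromosome 11. It had 7.09 RPKM in MOMT4 and 0.485 RPKM in WT, from 79 and 5 reads, while Potri.011G076500 had 13.8 RPKM in MOMT4 and 3.64 RPKM in WT. Potri.016G092800, next to Potri.016G092700, had 1.96 RPKM in MOMT4 and 0.235 RPKM in WT, from 9 reads and 1. Potri.013G041700, next to Potri.013G041600, had 9.08 RPKM in MOMT4 and 5.06 RPKM in WT, and Potri.003G087500, next to Potri.003G087400, had 21.3 RPKM in MOMT4 and 13.7 RPKM in WT. Potri.006G100000, with 9.03 RPKM in MOMT4 and 0 in WT, is listed at the same limits as the member Potri.006G099900 (25.6 RPKM in MOMT4 and 9.93 RPKM in WT). The listed positions therefore do not tell these rows apart. The other 4 had 1.60 to 5.70 RPKM in MOMT4 and stood beside Potri.001G024900, Potri.002G115400, Potri.008G131200 and Potri.011G140700. The row beside Potri.002G115400 held only 4 reads in MOMT4 and 2 in WT. The row beside Potri.011G140700 held 21 and 10, and reads were not recovered for the row beside Potri.008G131200. Of the 13 rows, 7 had means under 5 RPKM.

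Distances between the 91 genes were mostly large, and were not compared with those between other genes past the filter. Among the 73 pairs of successive higher genes on 1 chromosome, the median distance was 2392 kb, and 6 pairs lay within 100 kb. Beside the 3 pairs above, Potri.014G126000 and Potri.014G126900 lay 52.8 kb apart with 8 rows between them, and Potri.014G124700 preceded Potri.014G126000 by 87.7 kb and 12 rows. Potri.009G129900 (41.8 RPKM in MOMT4 and 18.6 RPKM in WT) and Potri.009G131000 (8.06 RPKM in MOMT4 and 2.81 RPKM in WT) lay 58.5 kb apart with 10 rows between them. The other rows of at least 1 RPKM around these close genes had log2 ratios of -0.43 to 0.40 on chromosome 14 and -0.11 to 0.61 on chromosome 9.

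Higher genes were found on 17 of the chromosomes and on 1 unplaced scaffold, which carried Potri.T167100 (7.84 RPKM in MOMT4 and 2.63 RPKM in WT). Chromosomes 1 and 6 carried 11 each, of 1956 and 1276 genes past the filter, and chromosome 13 carried 9 of 679 (1.33%). Chromosome 19 carried 8 of 393 (2.04%), the largest share of any chromosome, against 0.548% over the table. Chromosomes 5 and 7 carried none of 1118 and of 639 genes past the filter, although 6 and 3 genes at least 2-fold lower lay on them. On chromosome 19 the 8 genes spread over most of its mapped rows, with Potri.019G024400 at 2800499 and Potri.019G126200 at 15321458 as the first and the last. Of the 9 on chromosome 13, 2 formed the adjacent pair, and Potri.013G147000 and Potri.013G124300 shared their position with another row.

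Besides the 2 shared rows among the largest ratios, 5 of the 91 genes had the same limits as another row, making 7 in all (7.69%), against 7.9% of the genes past the filter. In Potri.012G143600 (15.6 RPKM in MOMT4 and 4.17 RPKM in WT) and Potri.001G293400 (21.5 RPKM in MOMT4 and 8.76 RPKM in WT) the other row was listed at 0 in both libraries. In Potri.013G124300 (18.2 RPKM in MOMT4 and 3.93 RPKM in WT) the other row, Potri.013G124200, had 0.361 RPKM in MOMT4 and 0.521 RPKM in WT. Potri.014G124600, the partner of Potri.014G124700 (7.59 RPKM in MOMT4 and 3.13 RPKM in WT), had 1.53 RPKM in MOMT4 and 1.05 RPKM in WT. How reads were divided between rows with the same limits is not given in the sources used here, so values of these 7 genes are uncertain. Whether the listed limits and spans are those of each single gene is not known either.

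The limits of the rule cut through a continuous range. Just inside the log2 limit lay Potri.019G057400 (8.69 RPKM in MOMT4 and 3.84 RPKM in WT), Potri.008G063000 and Potri.011G140700 (12.9 RPKM in MOMT4 and 5.86 RPKM in WT), at log2 ratios of 1.00, 1.01 and 1.02. Just outside lay Potri.009G162400 (19.8 RPKM in MOMT4 and 9.42 RPKM in WT), Potri.002G176900 (13.3 RPKM in MOMT4 and 6.20 RPKM in WT) and Potri.014G085800 (7.24 RPKM in MOMT4 and 3.21 RPKM in WT), at 0.998, 0.987 and 0.970. At the limit on the mean, Potri.011G000400 and Potri.015G141600 (5.15 RPKM each) and Potri.002G190800 (5.20 RPKM) were kept. Potri.017G080100, Potri.006G010900 and Potri.005G184800, with means of 4.93, 4.89 and 4.87 RPKM, were not. Beyond this limit, 236 further poplar genes were at least 2-fold higher with means under 5 RPKM. The table marks 2 rows as failed, and 1 of these met the other limits and was left out.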

How the data were processed

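Stem RNA of 1 MOMT4 and 1 WT pool was sequenced. Per the labels and methods, the libraries were strand-specific, and the authors aligned the reads with TopHat and Bowtie to the Populus trichocarpa genome from PlantGDB, allowing 1 mismatch, and normalized read counts to RPKM. The deposited table gives 1 RPKM value per library from Cuffdiff. Its log2 ratio, test statistic, p-value and q-value columns hold the authors' own comparison and were not used. Program versions and the build of the genome are not given in the sources used here. The read length differs between the methods and the design text. Start positions of the table were raised by 1.

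Log2 ratios of MOMT4 over WT were computed from the deposited values with a pseudocount of 1 RPKM, for genes averaging 5 RPKM or more in the 2 libraries. With 1 library per group, no p-value or SD was computed. Reads were recovered by dividing each RPKM by the worth of 1 read. That worth used an effective length, the counted length reduced for fragment lengths of mean 200 and SD 80 bases cut at 99 and 440. The totals found were 9460264 reads for MOMT4 and 8750744 for WT, so that the RPKM of 1 read was 1.08 times larger in WT. This gave whole reads in both libraries for 12365 of the 27057 rows alone at their position and above 0. Intervals are exact 95% binomial (Clopper-Pearson) and cover counting error only.

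Named were the transgene, the 10 largest log2 ratios, the 5 highest means, the 3 genes on each side of both limits, adjacent members and members with at least 100 reads. Others were named after their values were seen. The genes and lists were chosen with earlier results of these data known. Gene lists by function and promoter motifs were planned and not analysed here, since the identifiers carry no annotation. Alternatives were a pseudocount of 0.1, means of at least 1 and 10 RPKM, no filter, limits of 1.5-fold and 4-fold, centred ratios, no shared positions, other limits for neighbours and, added after seeing the data, spans of at least 600 bases. The steps were tested on data simulated with the same effective lengths, with 4-fold changes in genes averaging at least 10 RPKM. That simulation could not show whether the deposited values follow the same model, nor how 2-fold changes at lower levels fare. Scripts ran under Python 3.11.15 with SciPy 1.17.1, NumPy 2.4.6, pandas 2.3.3 and, for plots, matplotlib 3.10.9.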

Additional observations from a re-analysis of the deposited data

How the results depend on the processing

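The 91 higher genes became 248 with a mean of at least 1 RPKM, 52 with at least 10 RPKM and 327 with no filter. They were 384 at a 1.5-fold limit and 10 at a 4-fold limit, both after 1 RPKM was added. By the folds given for single genes, without the added 1 RPKM, more genes exceeded 4-fold. They were 114 with a pseudocount of 0.1, which kept all 91, 92 with centred ratios, 84 without shared positions and 76 with spans of at least 600 bases, an alternative chosen after seeing the data. The median log2 ratio of 1.28 was 1.30 with a pseudocount of 0.1, 1.30 with a mean of at least 1 RPKM, 1.31 with at least 10 RPKM, 1.26 without shared positions and 1.25 with spans of at least 600 bases. The median span of 1782 bases was 1771 with a pseudocount of 0.1, 1669.5 with a mean of at least 1 RPKM, 1752 without shared positions and 1992 with spans of at least 600 bases. Genes listed at 0 in WT were 37, and adjacent pairs 7, with a mean of at least 1 RPKM. The 13 neighbours at least 1.5-fold higher were 7 at a 2-fold limit and 6 with a neighbour mean of at least 5 RPKM.

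No paired analysis was possible because only 1 library stood for each line, so no replicate was left out. Counting error was widest in genes with few reads, and the interval reached 1 or below in genes with up to 26 reads. The spread between plants was not measured.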
